A study of Mus musculus with 4 samples.

Results

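RNase P and RNase MRP are ribonucleoprotein enzymes, each built on an RNA of its own and a largely shared set of small proteins. The set described here holds 10 genes of the 23922 in the authors' deposited table, taken by gene name. They fall into 5 RNA genes (Rmrp, Rpph1, Rprl1, Rprl2 and Rprl3) and 5 genes of protein subunits (Pop1, Pop4, Pop5, Rpp30 and Rpp38). The genes were chosen by their log2 ratios between the conditions of this table, large in the RNAs and small in the proteins, so the differences between conditions given for them are a description and no test is added to them. RNase P cuts the leader off precursor transfer RNAs, and its RNA, encoded by Rpph1, is the catalytic part of the enzyme. RNase MRP acts mainly in the nucleolus, where it cuts the ribosomal RNA precursor within an internal transcribed spacer. Its RNA, encoded by Rmrp, is mutated in cartilage-hair hypoplasia in humans. Both RNAs are made by RNA polymerase III from promoters that lie upstream of the transcribed part. Neither RNA has a poly(A) tail, so they are measured in libraries of total RNA and largely lost from poly(A)-selected ones.

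The 4 libraries came from E14, a mouse embryonic stem cell line that was grown with leukemia inhibitory factor. The cells received esiRNA, a mixture of many small interfering RNAs produced by enzymatic digestion of 1 double-stranded transcript, either against Pnldc1, which encodes a deadenylase of the PARN family (2 libraries), or against luciferase, which mouse cells lack (2 libraries). All 4 were made from total RNA depleted of ribosomal RNA and of RNA shorter than 200 nt, per the labels. Each gene has 1 value per condition in the authors' deposited table, in conditions named q2 and q1, and the sources used here do not say which of the conditions received which esiRNA. Every difference is therefore given as q2 over q1 and is not a direction of the silencing. Values of single libraries were not used here, so no SD can be given, and replicate error enters through the Cuffdiff test that the authors ran over the 4 libraries. Whether libraries of 1 group are separate cultures is not stated, so the p-values may measure technical spread alone. The identity of the cells was checked on markers: the 12 markers of embryonic stem cells were all among the tested genes, with values from 18.2 to 864.9 FPKM in q2 and from 27.5 to 713.9 in q1, whereas none of 14 markers of fibroblasts, endoderm, neural cells and trophoblast was tested, with values of at most 13.0. The unit, read from the low values because the header names none, is FPKM, a fragment count scaled to transcript length and library size.

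Rmrp and Rpph1 RNAs are shown first because they carry the largest values among the 5 RNAs, and the Rprl RNAs because their likeness to Rpph1 bears on how their values can be read. Sequences are the annotated transcripts of GENCODE M21 on GRCm38, written 5′ to 3′ as DNA. Rmrp is the gene at chr4:43492788-43493058 on the minus strand, and its RNA of 271 nt has a GC content of 64.2%.
Rmrp: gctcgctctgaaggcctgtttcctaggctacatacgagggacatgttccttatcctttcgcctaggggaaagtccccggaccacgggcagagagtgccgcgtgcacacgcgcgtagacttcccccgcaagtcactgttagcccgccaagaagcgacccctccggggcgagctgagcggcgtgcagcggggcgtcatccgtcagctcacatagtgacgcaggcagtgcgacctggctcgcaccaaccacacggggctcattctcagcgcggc
Rpph1 lies at chr14:50807449-50807767 on the minus strand and its RNA has 319 nt. Its first 257 bases are printed, with capitals marking a repeat of 21 bases that stands there as a pair of identical copies side by side, at positions 182 to 202 and 203 to 223.
Rpph1: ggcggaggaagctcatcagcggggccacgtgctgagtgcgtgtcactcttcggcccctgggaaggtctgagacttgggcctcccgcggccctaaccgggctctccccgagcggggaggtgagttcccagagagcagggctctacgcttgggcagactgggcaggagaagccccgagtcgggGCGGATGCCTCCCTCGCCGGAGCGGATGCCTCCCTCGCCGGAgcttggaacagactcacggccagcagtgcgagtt
In the Rprl RNAs, which are known as RNase P RNA-like, capitals mark the bases that differ from Rpph1 in a local alignment of their first 236 bases. Rprl3 lies at chr8:3803069-3803358 on the minus strand, Rprl2 at chr3:22251374-22251663 on the plus strand and Rprl1 at chr6:69326844-69327170 on the minus strand.
Rprl3: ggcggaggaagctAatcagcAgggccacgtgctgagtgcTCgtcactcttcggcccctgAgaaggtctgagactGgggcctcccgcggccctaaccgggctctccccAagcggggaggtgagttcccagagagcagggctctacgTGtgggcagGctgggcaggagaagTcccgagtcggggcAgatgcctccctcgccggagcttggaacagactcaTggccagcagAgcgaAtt
Rprl2: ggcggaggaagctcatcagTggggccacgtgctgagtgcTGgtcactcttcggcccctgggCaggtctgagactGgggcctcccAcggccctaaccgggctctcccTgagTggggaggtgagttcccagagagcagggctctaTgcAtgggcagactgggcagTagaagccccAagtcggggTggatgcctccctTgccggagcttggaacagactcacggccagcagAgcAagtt
Rprl1: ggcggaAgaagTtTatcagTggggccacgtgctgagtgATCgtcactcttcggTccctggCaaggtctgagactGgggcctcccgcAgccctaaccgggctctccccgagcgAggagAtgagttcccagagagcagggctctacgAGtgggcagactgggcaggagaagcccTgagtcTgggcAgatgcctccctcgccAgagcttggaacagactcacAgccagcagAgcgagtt

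Over these 236 bases, Rprl3 matched Rpph1 at 221 (93.6%), Rprl2 at 220 (93.2%) and Rprl1 at 215 (91.1%). All 3 lacked 1 copy of the repeat of Rpph1, a single gap of 21 bases. Beyond position 236 the Rprl RNAs no longer aligned to Rpph1 and instead shared a tail of 54 bases with each other, identical between Rprl3 and Rprl2 and with 53 of 54 bases the same in Rprl1. That tail reads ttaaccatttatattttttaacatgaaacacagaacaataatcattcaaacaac in Rprl3. The Rprl RNAs were less alike over their first 236 bases than in the tail, at 90.3% between Rprl3 and Rprl2, 90.7% between Rprl3 and Rprl1 and 88.6% between Rprl2 and Rprl1. The longest run of bases that Rprl3 shared exactly with Rpph1 was 37, against 32 for Rprl2 and 27 for Rprl1. Of the 241 stretches of 50 bases in Rprl3, 54 (22.4%) matched Rpph1 with at most 2 mismatches and none matched exactly. The same count was 12 of 241 (4.98%) in Rprl2 and 16 of 278 (5.76%) in Rprl1. The longest run that Rmrp and Rpph1 shared was 9 bases.

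**Figure D1:**
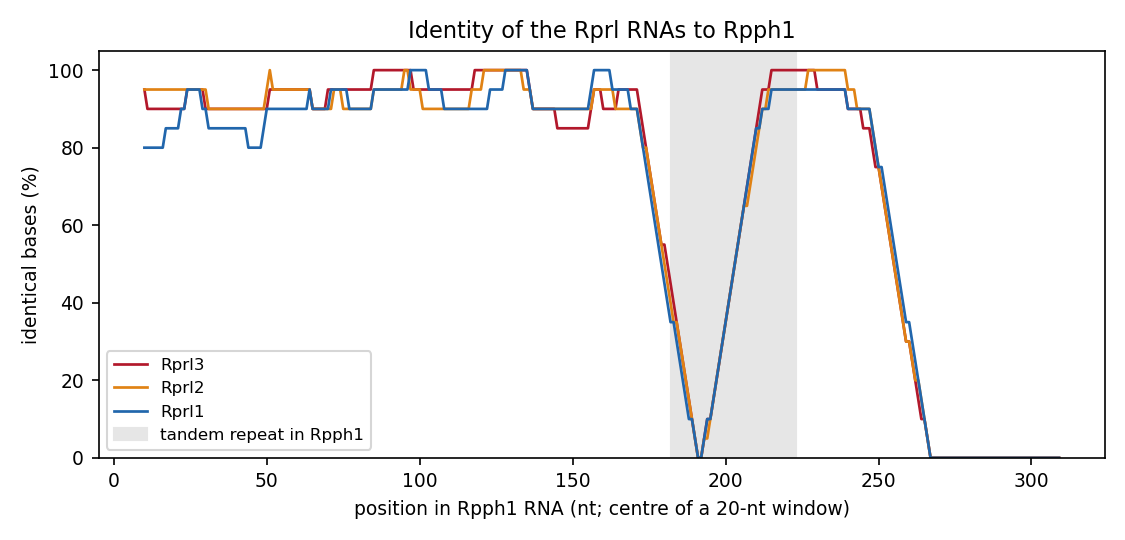
Percentage of bases of Rpph1 that were identical in the aligned Rprl3, Rprl2 and Rprl1 RNAs (lines), in windows of 20 nt by position in Rpph1; the grey band is the tandem repeat at positions 182 to 223. The 3 lines stay high over the first part, drop to 0 within the repeat, where each Rprl RNA lacks 21 bases, and drop to 0 again beyond position 257, where no base was aligned.

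Rmrp had the highest values among the 5 RNAs, 93681 FPKM in q2 and 10509 FPKM in q1 in the authors' deposited table. It was 8.91-fold higher in q2 (log2 ratio 3.16, Cuffdiff q = 0.00367). Rpph1 stood below Rmrp in both conditions, with 23147 FPKM in q2 and 1784 FPKM in q1 in the authors' deposited table. It was 12.98-fold higher in q2 (log2 ratio 3.70, Cuffdiff q = 0.00367). The order of the RNAs was thus the same in both conditions, with Rpph1 at 24.7% of Rmrp in q2 and at 17.0% in q1. Rmrp has 271 nt and Rpph1 319 nt, and the part of length in these percentages was not tested. Dividing each log2 ratio by the deposited test statistic gives the error the statistic would imply if it is a ratio over its standard error, and that error was 0.36 for Rmrp and 0.24 for Rpph1 on the log2 scale. Setting a ratio against this error only returns the statistic, 8.75 for Rmrp and 15.45 for Rpph1, and is no separate measure of strength. The difference between their ratios was not tested.

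The RNase P RNA-like genes were far lower than Rpph1 and differed among themselves. Rprl3 had 1701 FPKM in q2 and 98.7 FPKM in q1 in the authors' deposited table, a 17.23-fold higher value in q2 (log2 ratio 4.11, Cuffdiff q = 0.0263). The error its statistic would imply, 0.90, was the largest among the 8 tested genes of the set. Rprl3 stood at 7.35% of Rpph1 in q2 and at 5.53% in q1. Rprl2 was listed at 12.6 FPKM in q2 and at 0 in q1, and Rprl1 at 0 in both, in the authors' deposited table. Neither of these was tested by the authors, and no fold is given for them. The share of stretches close to Rpph1 was 22.4% in Rprl3, 4.98% in Rprl2 and 5.76% in Rprl1. A relation of this share to the values was not tested. The sources used here do not give how reads shared by Rpph1 and the Rprl genes were assigned, so the values of Rprl3 and Rprl2 are uncertain, and a part of Rpph1 reads in them was not tested. With the value of Rprl3 added to that of Rpph1, a setting chosen after the data were seen, the log2 ratio of Rpph1 was 3.72. At 7.35% and 5.53% of Rpph1, Rprl3 could change that ratio only slightly. The setting therefore does not check how shared reads were assigned.

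The 5 protein subunits differed little between the conditions, and none passed the authors' test. Pop4, which corresponds to human RPP29 and binds the RNA, had the highest value of the 5, 91.3 FPKM in q2 and 75.3 FPKM in q1 in the authors' deposited table, with a log2 ratio of 0.28 (q = 0.544). Pop5, a subunit that is conserved to archaea, had 64.2 FPKM in q2 and 54.4 FPKM in q1 in the authors' deposited table (a log2 ratio of 0.24, q = 0.706). For Pop1, the largest protein of both enzymes, the authors' deposited table gives 33.1 FPKM in q2 and 37.3 FPKM in q1 (log2 ratio -0.17, q = 0.70). These 3 proteins showed ratios on both sides of 0. Rpp30, which pairs with Pop5 in the enzyme, had 30.0 FPKM in q2 and 20.3 FPKM in q1 in the authors' deposited table (a log2 ratio of 0.56, q = 0.456), the largest ratio among the 5. Rpp38, an RNA-binding subunit of the family of ribosomal protein L7Ae, was the lowest, with 17.0 FPKM in q2 and 17.9 FPKM in q1 in the authors' deposited table (a log2 ratio of -0.08, q = 0.947). The errors that the statistics would imply lay between 0.32 for Pop1 and 0.73 for Rpp38. These errors are uncertain, because the deposited p-values of the 5 were smaller than normal scores equal to their statistics would give. Rpp30, for example, had a statistic of 0.957 and a Cuffdiff p of 0.165. The statistic may therefore not be a ratio over its standard error. A test that is not passed does not show that the levels were equal, and errors of this size would leave changes of a similar size undetected. The order of the 5 proteins by value, Pop4, Pop5, Pop1, Rpp30 and Rpp38, was the same in both conditions, and with no spread over libraries neighbours in that order cannot be told apart.

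**Figure D2:**
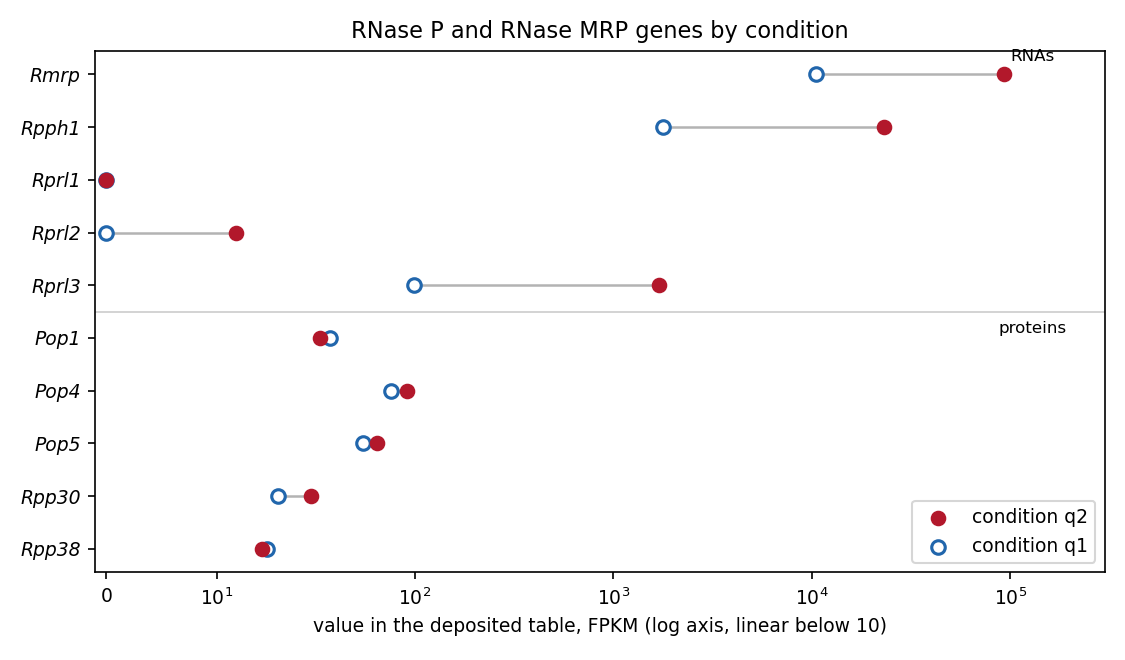
Value of each of the 10 genes in the authors' deposited table, in FPKM on an axis that is logarithmic above 10 and linear below it, with condition q2 as filled points and condition q1 as open points, no error bars because each condition has 1 value. Rmrp, Rpph1 and Rprl3 lie far apart in q2 and q1, the 5 proteins lie between 16.96 and 91.3 FPKM with the conditions close together, and both points of Rprl1 fall on 0.

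Counted together, 3 of the 5 RNA genes were tested and all 3 were higher in q2 at a q under 0.05, while 0 of the 5 proteins passed. Among all genes, 243 of 5719 tested genes passed (4.25%), 132 as higher in q2 (2.31%) and 111 as higher in q1 (1.94%). Since the RNAs entered the set for a large difference and the proteins for a small one, no count of either, here or below, is read against the share of all tested genes. None of the 5 proteins reached an unadjusted Cuffdiff p under 0.05 either, a level that 18.8% of tested genes reached. At a q under 0.01, which 1.87% of tested genes passed, Rmrp and Rpph1 passed and Rprl3 did not, and at a q under 0.1, which 7.36% passed, the counts were as at 0.05. The median log2 ratio was 3.70 for the 3 tested RNAs and 0.24 for the 5 proteins, beside 0.06 for all tested genes with a value in both conditions. Ranked by log2 ratio among the 5654 such genes, Rprl3 stood at place 5, Rpph1 at place 7 and Rmrp at place 19. The proteins lay between percentiles 28.9 (Pop1) and 87.4 (Rpp30) of the same ranking. These medians, places and percentiles restate the log2 ratios by which the genes were chosen and are no separate result.

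**Figure D3:**
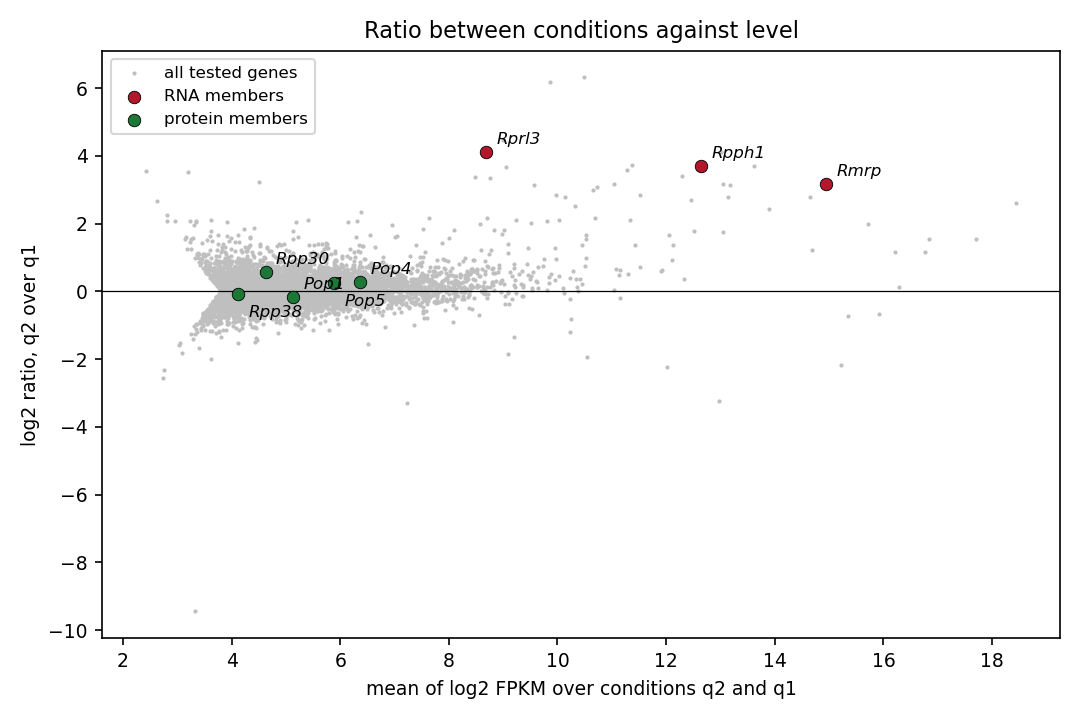
Log2 ratio of q2 over q1 against the mean log2 FPKM of both conditions for all tested genes above 0 in both (grey), with the 3 tested RNA genes in red and the 5 proteins in green. The RNAs lie at ratios of 3.16 to 4.11 and the proteins between -0.17 and 0.56, within the bulk of the grey points.

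None of the other subunits of the enzymes passed, a level that 4.25% of all tested genes reached. That none passed does not show that they behaved like the 5 proteins of the set. Of 6 further genes, 5 were tested and Rpp40 (7.44 FPKM in q2 and 9.64 in q1 in the authors' deposited table) was not. Rpp25l had a log2 ratio of 0.48 (122.3 FPKM in q2 and 88.0 in q1 in the authors' deposited table, q = 0.336) and its paralogue Rpp25 of 0.22 (q = 0.645). These encode alternative partners of Pop7 in the dimer that holds the RNA. Pop7 itself had 0.61 (53.7 FPKM in q2 and 35.1 in q1 in the authors' deposited table, q = 0.406), Rpp21 0.52 (q = 0.739) and Rpp14 -0.03 (q = 0.968). The 5 tested subunits outside the set had a median of 0.48, beside 0.24 for the 5 proteins chosen for small ratios. The difference between these medians was not tested. Of all 10 tested protein subunits, 7 had a ratio above 0, and the median of the 10 was 0.26. Mitochondrial RNase P, which in animals is made of protein alone, had 3 tested genes, Trmt10c (-0.00), Hsd17b10 (0.39) and 1110008L16Rik (0.05), and none passed.

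The genes that transcribe these RNAs held 1 gene that passed in each direction. Of all tested genes, 2.31% passed as higher in q2 and 1.94% as higher in q1. A count of 1 in lists this short does not set them apart from those shares. Maf1, a repressor of RNA polymerase III, was higher in q2, with 68.6 FPKM in q2 and 33.5 FPKM in q1 in the authors' deposited table (a log2 ratio of 1.03, Cuffdiff q = 0.0122), and it was the single gene of 11 tested polymerase III subunits and regulators to pass. The other 10, led by Polr1c (0.21), Polr1d (0.45), Polr3c (-0.02) and Polr3g (-0.33), did not. Bdp1, a subunit of the initiation factor TFIIIB, was higher in q1, with 10.9 FPKM in q2 and 17.7 FPKM in q1 in the authors' deposited table (a log2 ratio of -0.71, q = 0.0343). It was the single gene to pass among 8 tested factors of upstream polymerase III promoters. Brf2, the TFIIIB subunit particular to such promoters, had 0.23, the SNAPc subunit Snapc3 0.39, Tbp 0.53 and Snapc4 0.14. The octamer-binding factor Pou2f1 had -0.47, with an unadjusted Cuffdiff p of 0.0213 and q = 0.175. The medians of the lists were 0.13 for the polymerase and 0.17 for the promoter factors.

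None of the genes listed as acting on the substrates of the enzymes passed. Of all tested genes, 4.25% passed, and 18.8% had an unadjusted Cuffdiff p under 0.05. Counts this small in lists this short do not set these genes apart from those shares. Of 12 tested genes of transfer RNA maturation, none passed and 1 had an unadjusted Cuffdiff p under 0.05, namely Trnt1, which adds the terminal CCA, with 38.8 FPKM in q2 and 64.2 FPKM in q1 in the authors' deposited table (a log2 ratio of -0.73, q = 0.0901). Ssb, the La protein that binds the ends of new polymerase III transcripts, had -0.06, the splicing ligase Rtcb -0.06 and Elac2, which trims the other end of transfer RNA precursors, 0.11. Of 14 genes of ribosomal RNA processing around the internal spacers, none passed and 2 had an unadjusted Cuffdiff p under 0.05, the exonuclease Xrn2 (-0.52, q = 0.131) and Bop1 (0.47, q = 0.141). Nob1 had -0.07, Nol9 -0.15 and Dis3 -0.29. Their medians were 0.05 for the transfer RNA list and -0.08 for the ribosomal RNA list.

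**Figure D4:**
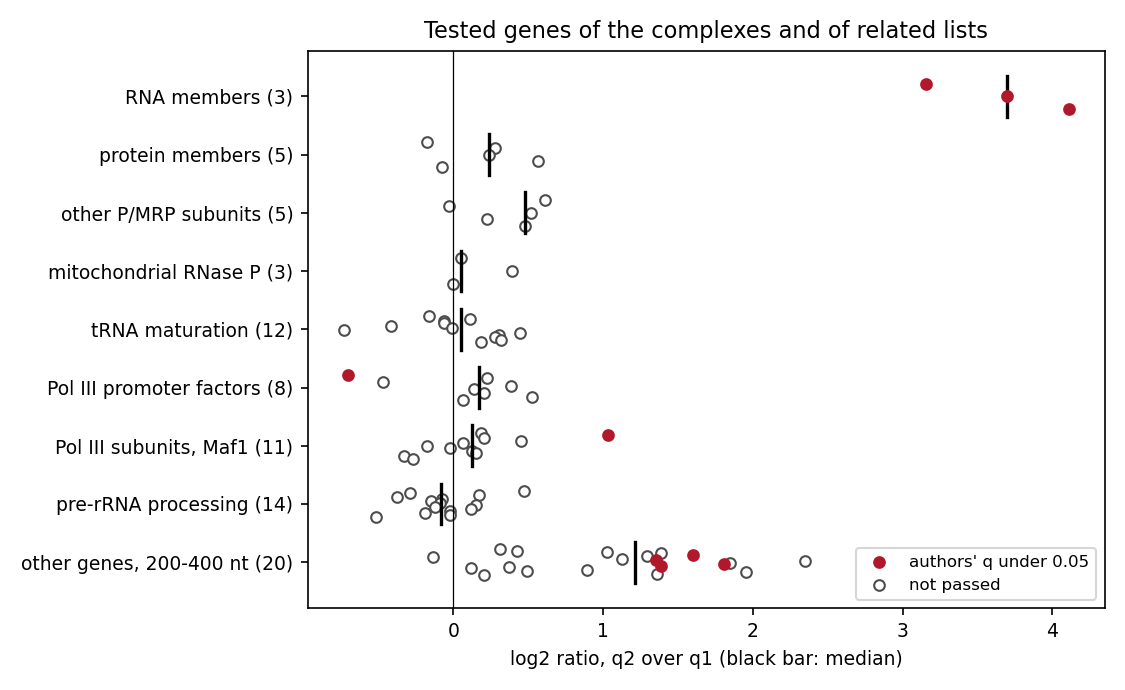
Log2 ratio of q2 over q1 for tested genes above 0 in both conditions, 1 point per gene, by list, with the number of genes in brackets; filled points passed the authors' q under 0.05 and the black bar is the median. The 3 RNA members, chosen for large ratios, lie at 3.16 or more, to the right of every gene of the other lists. Maf1 and Bdp1 are the filled points in the polymerase III lists.

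Short genes as a class had higher ratios than the bulk of the table, and their values are given beside those of the RNAs for that reason. Of 20 other tested genes with 1 annotated length from 200 to 400 nt, 19 had a log2 ratio above 0. Their median was 1.21, beside 0.06 for all tested genes, and their highest ratio was 2.35. Of the 20, 4 passed, all higher in q2, whereas 2.31% of all tested genes passed as higher in q2. Histone genes made up 11 of these 20. The other 9 had a median of 0.49 and a range from 0.12 to 1.96, and none passed, with 1 at an unadjusted Cuffdiff p under 0.05. The 3 RNAs of the set lay above each of these 20 genes, which their choice for large ratios favoured in advance. The part of length in their ratios was not tested. Scarna13, among the 9 that are no histone genes and a small Cajal body RNA of 275 nt, had 838.5 FPKM in q2 and 595.9 FPKM in q1 in the authors' deposited table (a log2 ratio of 0.49, q = 0.342). Terc, the telomerase RNA, had 669.6 FPKM in q2 and 287.5 FPKM in q1 in the authors' deposited table (a log2 ratio of 1.22, q = 0.00367). Of the other structured RNAs on the list that were in the table, Scarna6 had 1.96 (q = 0.436), Scarna10 was listed at 0 in both conditions and not tested, and Scarna2 was listed at 2921 FPKM in q2 and at 0 in q1 in the authors' deposited table (q = 0.213). Of 9 other polymerase III transcripts looked for, 3 were found in the table, and Vaultrc5 alone was tested (35.4 FPKM in q2 and 9.90 in q1 in the authors' deposited table, a log2 ratio of 1.84, q = 0.494). With the members of the set left out, the genes that passed with ratios nearest to those of Rmrp and Rpph1, by the distance of their single log2 ratio between the 2 conditions, were the same 3 for both: the small nucleolar RNA Snora26 (3.69), the non-coding RNA gene 5730408K05Rik (3.15) and the small nucleolar RNA Snord35a (2.62). Snord35a had the highest value of all genes, 883471 FPKM in q2 and 144070 FPKM in q1 in the authors' deposited table. The libraries were depleted of RNA shorter than 200 nt, and how much of it remained in each condition was not tested.

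The precision behind these values differs between the RNAs and the proteins. Among protein-coding genes of at least 600 nt, low values fell in steps worth 1 fragment, which puts the libraries of a condition at about 1460000 fragments in q2 and 1230000 in q1. On that scale Pop4 had at most about 282 fragments in q2 and 195 in q1, and Rpp38 about 25.8 and 22.9, so the protein subunits were measured at low depth. In genes of 100 to 150 nt the lower quartile of the value times the length in kilobases was 17.6 in q2 and 17.7 in q1, against steps of 0.69 in q2 and 0.81 in q1 in the long genes. Whether 1 fragment is worth more in short genes or these genes had more fragments was not tested. The RNAs of the set lie between these lengths, so the number of fragments behind their values is not known. Their levels are therefore not compared with those of the proteins. The percentages between the RNAs, which differ in length, carry the same uncertainty. With the step of the long genes, Rprl3 in q1 would rest on about 35.2 fragments and Rpph1 in q1 on about 699. Were the lower quartile of the short genes worth 1 fragment, these would be about 1.6 and 32.2. The ratio of Rprl3 may therefore rest on very few fragments in q1.

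The surroundings of the RNA genes are described because Rmrp and Rpph1 each have a protein-coding neighbour that starts close by on the other strand. In GENCODE Rpph1 and Parp2, a poly(ADP-ribose) polymerase, are transcribed away from each other, with their starts 74 bases apart, and the RefSeq start of Parp2 lies 149 bases from the annotated start of Rpph1. Parp2 had 47.4 FPKM in q2 and 43.5 FPKM in q1 in the authors' deposited table (a log2 ratio of 0.13, q = 0.818). Ccnb1ip1, annotated on the same strand as Rpph1 and overlapping 284 of its bases, had 21.1 FPKM in q2 and 22.2 FPKM in q1 in the authors' deposited table (a log2 ratio of -0.07, q = 0.932). Neither neighbour of Rpph1 passed the test. Ccdc107, on the other strand, starts within Rmrp and overlaps 159 of its bases in GENCODE, whereas its RefSeq start lies 307 bases from the start of Rmrp, upstream and outside it. It was listed at 0 in q2 and at 2.35 FPKM in q1 in the authors' deposited table and was not tested. Arhgef39, next to it, had 13.0 FPKM in q2 and 10.6 in q1 in the authors' deposited table and was not tested. The genes nearest to Rprl1, Rprl2 and Rprl3 were pseudogenes, a microRNA gene and a long non-coding RNA, none of them in the table. Among the proteins, Pop5 overlaps Rnf10 on the other strand by 3940 bases of the gene (Rnf10 log2 ratio 0.01). The sources used here do not give whether the counting used strand, so reads of such overlapping genes cannot be told apart.

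**Figure D5:**
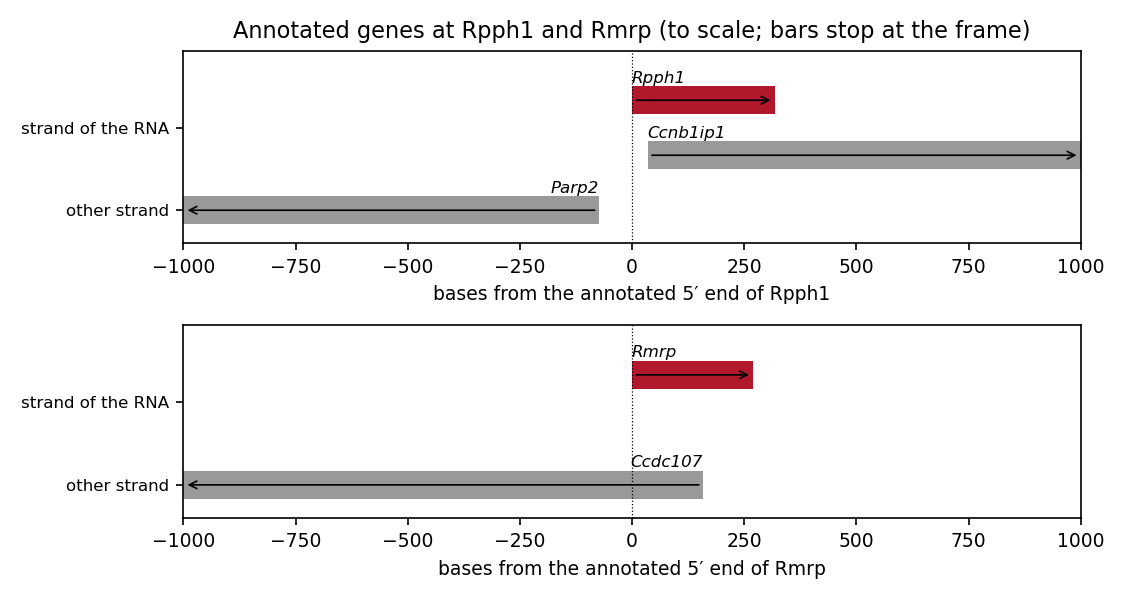
Genes as annotated in GENCODE within 1000 bases of the 5′ ends of Rpph1 and Rmrp, to scale, with arrows in the direction of transcription and bars stopping at the frame. Parp2 starts 74 bases from Rpph1 and runs away from it, Ccnb1ip1 overlaps Rpph1 on its strand, and Ccdc107 overlaps Rmrp on the other strand.

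The sequence around the start of Rpph1 is printed because it holds that start and elements usual for its class of promoter, and the window at Rmrp for comparison. Both are RefSeq windows (GRCm38.p6) of the neighbours, Parp2 at chr14:50807666-50807965 and Ccdc107 at chr4:43493115-43493414, written here on the minus strand, the strand of the RNAs. Capitals mark the octamer ATGCAAAT and the TATA motif TATAA in either direction. The first window holds 198 bases upstream of Rpph1 and its first 102 bases, and the second window ends 56 bases short of the annotated start of Rmrp.
Rpph1: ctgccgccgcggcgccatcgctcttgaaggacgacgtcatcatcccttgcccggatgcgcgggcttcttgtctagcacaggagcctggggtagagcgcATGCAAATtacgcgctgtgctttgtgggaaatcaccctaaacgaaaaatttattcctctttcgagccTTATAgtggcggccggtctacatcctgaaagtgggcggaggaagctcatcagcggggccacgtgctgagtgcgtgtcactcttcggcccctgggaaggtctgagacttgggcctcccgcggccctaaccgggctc
Rmrp: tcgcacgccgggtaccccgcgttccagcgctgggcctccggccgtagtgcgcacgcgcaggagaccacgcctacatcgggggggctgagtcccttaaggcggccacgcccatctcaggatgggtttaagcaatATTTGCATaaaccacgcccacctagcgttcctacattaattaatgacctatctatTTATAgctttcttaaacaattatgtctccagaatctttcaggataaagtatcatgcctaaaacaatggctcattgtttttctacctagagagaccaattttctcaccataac

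Upstream of Rpph1, the octamer lay at positions -100 to -93, the motif CACCC at -68 to -64 and TATAA, on the other strand, at -33 to -29, counted from the first base of the RNA. Upstream of Rmrp the octamer lay at -223 to -216 and TATAA at -168 to -164, both on the strand opposite to Rmrp, and CACCC was not found in the window, which does not reach the bases next to the start. Of 32851 RefSeq promoter windows of the same length, 1.74% held the octamer, 24.9% TATAA and 57.5% CACCC on either strand. The core motif of the factor ZNF143 was found in neither window and in 1.88% of all. None of the motifs overlapped another. These matches describe the letters of the windows, and no measurement of binding was made in these libraries.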

How the data were processed

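Per the submitters' processing notes, reads were processed with TopHat and Cuffdiff on the builds mm10 and GRCm38.p4. The sources used here do not give versions, options, the gene annotation, strand handling or the treatment of reads with several matches. The deposited table holds, per the file headers, 1 value per gene in each of 2 conditions, and the authors' Cuffdiff results, namely a test statistic (a signed score), a p-value and its adjusted q-value. The header names no unit. The deposited values were taken as FPKM made by the authors, since Cuffdiff reports FPKM in these columns and since, among protein-coding genes of 1 annotated length of at least 600 nt, 67.4% of values of up to 3 steps in q2 and 71.0% in q1 lay within 0.15 of a whole step once multiplied by length; the step was fitted to the same values. Samples were grouped by their titles, and no label ties a condition to a group.

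The members and gene lists were chosen with earlier results of these data known. Log2 ratios (q2 over q1) were computed from the deposited values, without a pseudocount, over all 23922 genes, and the authors' test was copied, at a q under 0.05. No test was added. Named genes were the members, their annotated neighbours, every gene of a related list that passed with up to 4 others of highest value, and the 3 genes that passed with the nearest ratio; Trnt1, Xrn2, Pou2f1, Rnf10, Scarna13 and the remaining subunits of the enzymes were added after their values were seen. Coordinates and sequences are from GENCODE M21 (GRCm38) and RefSeq promoter windows (GRCm38.p6; for Rpph1 and Rmrp those of neighbours were used). RNAs were aligned locally with Biopython 1.88; the alignment and the step fit were tested on simulated data.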

Additional observations from a re-analysis of the deposited data

How the results depend on the processing

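Each member's log2 ratio was computed again with ratios centred on the median of all tested genes, with upper-quartile scaling and with a pseudocount of 1 or 10, and no sign changed for the 8 members with a value above 0 in both conditions. Rmrp ranged from 3.10 to 3.16, Rpph1 from 3.64 to 3.72 (the highest with Rprl3 added), Rprl3 from 3.98 to 4.09, and the 5 proteins stayed between -0.23 and 0.54. The median ratio ranged from 3.64 to 3.70 for the RNAs and from 0.18 to 0.24 for the proteins. The tolerance for each was the error implied by the authors' statistic, and all 47 alternatives stayed within it or, for counts, within 1.5 times. Centring shifts every ratio by 0.06 and upper-quartile scaling by 0.03, both below the smallest implied error of a member, 0.24. Those 2 settings could therefore not move a member beyond its tolerance, and their outcome is no evidence of robustness. The same holds for the pseudocounts in Rmrp and Rpph1, whose values are far larger. A floor of 10 in a condition left both medians unchanged, because every member behind them lies above it. The count of 0 proteins at a q under 0.05 fixed that at a q under 0.01. The count of RNAs that passed was 2 at a q under 0.01, just at the limit of 1.5 times, and 3 otherwise. The smallest deposited p, 5e-05, was shared by 78 genes, Rmrp and Rpph1 among them, so p does not rank these. No paired analysis was possible because the table holds combined conditions and its columns carry no replicate numbers; for the same reason fits without single libraries, edgeR and DESeq2 were not run.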
